A study of Mus musculus with 12 samples.

Results

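The genes for the receptors and transporters of the neurotransmitter glutamate were compared between the hippocampi of MSN and ICR mice. A list of 31 genes was used, and a gene was taken as a member when the platform annotation gave its symbol to a transcript cluster (the probes of 1 transcribed region) that carries no other gene. Of the 31, 30 were found, each with 1 cluster, among 19938 genes measured in the same way. They were 4 AMPA receptor genes, 5 kainate receptor genes, 6 NMDA receptor genes, the delta receptor gene Grid1, 7 metabotropic receptor genes and 7 transporter genes. Grin1, which encodes the subunit that every NMDA receptor needs, has no cluster in the annotation used here and was not analysed.

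MSN (Madison) mice are an inbred line whose ancestors were taken from hsd:ICR stock and bred for high wheel running, and the line is kept as a model of mania. ICR is the outbred ancestral strain. All animals were adult males of similar age. They were anesthetized with isoflurane before tissue collection, and no other drug treatment was named. There were 6 mice per strain, with 1 Affymetrix Mouse Gene 1.0 ST array of macrodissected hippocampus for each mouse. MSN is a single line, so strain and line history cannot be told apart in this design, and no scan date or other batch was given. The deposited values are linear intensities, which were compared as log2(intensity + 16).

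Glutamate is the main excitatory transmitter of the hippocampus. Vesicular transporters load it into synaptic vesicles, ionotropic receptors of the AMPA, kainate and NMDA classes open a cation channel when they bind it, and metabotropic receptors signal through G proteins. Astrocytes carry most of the plasma membrane transporters that clear it from the synapse, with a smaller share on neurons. NMDA receptors and the AMPA receptors brought to the synapse after their activation are best known here for long-term potentiation, the strengthening of synapses studied as a cellular basis of memory.

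No member was called as dysregulated in MSN mice. At an adjusted P-value under 0.05 in limma, 0 of 30 members passed, and 0.777% of all 23410 clusters with a gene did. At an unadjusted P-value under 0.05, 1 of 30 members passed, Slc1a2, against 12.7% of all clusters and 7.50% that passed with lower values in MSN mice. Slc1a2 was also the only member whose 6 MSN values all lay on one side of the 6 ICR values, which was so for 1.44% of all clusters, and for 0.867% with the MSN mice lower. The differences were small as well as uncalled. The median size of the members' differences was 0.033 on the log2 scale, and it was 0.047 over all genes.

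The precision of these arrays allows limits to be set on what may have been missed. The 95% interval of the log2 difference lay within 0.15 of 0, a fold of 1.11, for 18 of 30 members. It lay within 0.25, a fold of 1.19, for 26 members and within 0.5, a fold of 1.41, for 29. Grm4 was the exception, with an interval from -0.77 to 0.19.

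**Figure D1:**
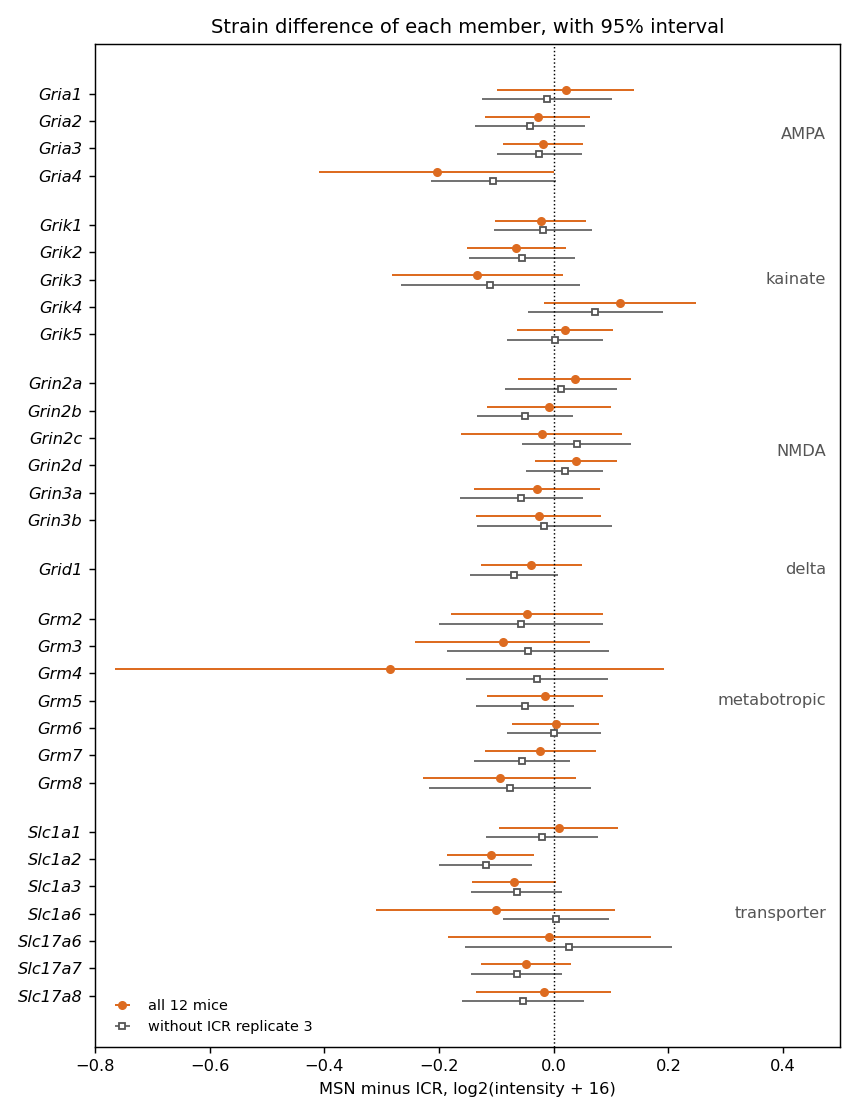
Difference between strains of each of the 30 members (x axis, MSN minus ICR on log2(intensity + 16); y axis, genes by class). Filled circles are the estimates from 6 MSN and 6 ICR mice and open squares those without ICR replicate 3, with bars for the 95% intervals. Slc1a2 has the only interval that excludes 0 (-0.19 to -0.03). Of 30 estimates 23 lie below 0 with the deposited scaling and 15 when the arrays are scaled to the same median.

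More estimates lay below 0 than above it, but the balance depended on how the arrays were scaled: 7 of 30 were above 0 with the values as deposited, 9 after quantile normalization and 15 once every array was scaled to 1 common median. The median difference of the 30 members was -0.02, beside -0.01 over all genes, of which 45.3% were above 0. By class, the median difference was -0.02 for the AMPA, -0.02 for the kainate and -0.01 for the NMDA genes. It was -0.05 for the metabotropic genes and -0.05 for the transporter genes. Scaling to the same median turned the AMPA, kainate and NMDA medians to slightly above 0, and the metabotropic and transporter medians stayed below it.

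1 ICR mouse stood apart, and it bears on several members below. ICR replicate 3 had the highest intensity of all 12 mice in 14 of 14 marker genes of the cerebellum, a list put together after the values were seen. Gabra6, a GABA receptor subunit of cerebellar granule cells, read 4983 in that mouse and 47.2 to 88.7 in the other 11. Cbln3, another granule cell gene, read 4586 against 149.6 to 225.0. The summed intensity of the 14 genes was 30802 in ICR replicate 3 and 6222 to 7857 elsewhere. All 14 markers of hippocampal pyramidal and granule neurons were measured, but without detection calls their presence cannot be scored. ICR replicate 3 had the lowest summed intensity of these markers, 23049. The sums were 25498.5 to 27329 in MSN mice and reached 26734 in ICR mice. The next-lowest ICR sum was not computed, so how far this mouse lay from its strain is not shown. In MSN replicate 5, all 8 immediate early genes of a list also put together afterwards were highest, with Arc at 2695 against 796.1 to 1502 in the others. The part of either pattern in the differences between strains was tested only by leaving these mice out. Across all 12 arrays the median intensity was 270.2 to 298.0 and pairwise correlations of log2 values were 0.988 to 0.995.

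**Figure D2:**
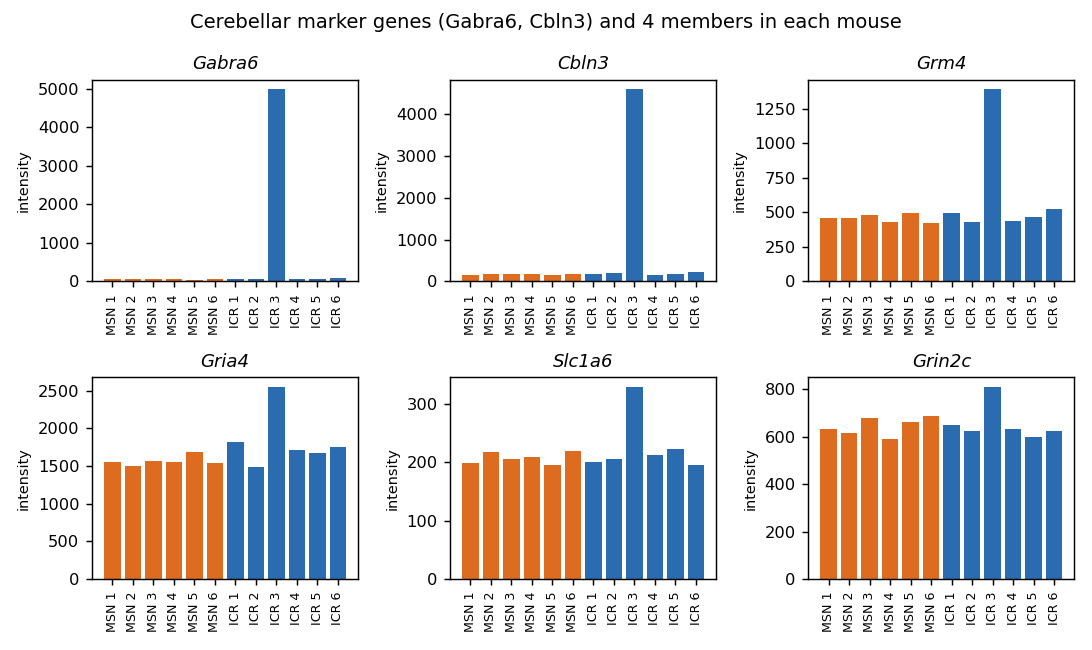
Intensity (y axis, linear, from 0) in each of the 12 mice (x axis; MSN orange, ICR blue) of Gabra6 and Cbln3, which mark the cerebellum, and of the members Grm4, Gria4, Slc1a6 and Grin2c. ICR replicate 3 has the highest bar in all 6 panels, for example 1392 for Grm4 against 425.2 to 524.3 in the other 11 mice.

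The transporters held the member with the lowest P-value. Slc1a2 encodes the astrocytic transporter (GLT-1, EAAT2) that removes most of the glutamate released in the forebrain. Its intensity in MSN mice had a lowest value of 7813, a median of 8495 and a highest of 8765. In ICR mice the lowest was 8766, the median 9064 and the highest 9158. The strains did not overlap, but the gap between the highest MSN mouse and the lowest ICR mouse was 1 unit of intensity, and that ICR mouse was replicate 3. The 6 MSN mice averaged 8372 ± 384 (SD, n = 6) and the 6 ICR mice 9030 ± 138 (SD, n = 6), a log2 difference of -0.11 ± 0.04 (SE), or 0.927-fold. It did not pass the adjusted test (limma, unadjusted P-value = 0.00778, adjusted P-value = 0.196). The two-sided exact permutation P-value was 0.00216, the smallest that 6 against 6 mice can give. Any gene whose strains do not overlap gets this value, so it restates the lack of overlap and adds no further evidence. This permutation test was run on each of the 30 members and its P-values are given unadjusted. Over 23 alternative settings the adjusted P-value of Slc1a2 ranged from 0.0732 to 0.492. The strains overlapped after quantile normalization and after scaling to the same median.

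Slc1a3 encodes the other main astrocytic transporter (GLAST, EAAT1). Its lowest, median and highest intensities were 4937, 5110 and 5439 in MSN mice and 5255, 5499 and 5551 in ICR mice, so that the strains overlapped. The log2 difference was -0.07 ± 0.03 (SE; limma, adjusted P-value = 0.416; exact permutation P-value = 0.0281). A window at 1 RefSeq transcript start is shown for each of these astrocytic genes, because theirs were the transporters with the lowest P-values. Each window runs from 250 bases before to 50 after that start (GRCm38.p6), written 5′ to 3′ on the gene's strand. This is the plus strand at chr2:102706188-102706487 for Slc1a2 and the minus strand at chr15:8710758-8711057 for Slc1a3. Other starts of these genes were not examined, so a window need not be the main promoter. Capitals mark GGGCGG, the core of the GC box, or its reverse complement CCGCCC.
Slc1a2: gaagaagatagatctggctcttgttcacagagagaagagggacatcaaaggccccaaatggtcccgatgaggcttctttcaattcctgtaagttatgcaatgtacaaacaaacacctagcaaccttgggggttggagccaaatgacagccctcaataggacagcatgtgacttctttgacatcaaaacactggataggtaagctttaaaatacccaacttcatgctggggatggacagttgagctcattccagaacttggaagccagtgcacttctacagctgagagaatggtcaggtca
Slc1a3: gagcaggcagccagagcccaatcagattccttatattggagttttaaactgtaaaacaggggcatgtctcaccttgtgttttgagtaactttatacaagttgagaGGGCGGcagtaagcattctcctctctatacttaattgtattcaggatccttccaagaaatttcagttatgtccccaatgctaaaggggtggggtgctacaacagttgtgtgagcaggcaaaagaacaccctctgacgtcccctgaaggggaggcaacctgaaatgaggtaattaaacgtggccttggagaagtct

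The Slc1a2 window holds no such match and 1 CpG, and the Slc1a3 window holds 1 match and 3 CpGs. A window was found for 21 of the 30 members, 26 windows in all, and 53.8% of these hold the hexamer on either strand, against 35.7% of the 32851 mouse windows of the same length. The member windows had a median G+C content of 62.3%, and the median over all windows was 52.7%. The windows of Slc1a2 and Slc1a3 shown above had 45.7% and 45.3%, values that hold for these starts only.

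Among the remaining plasma membrane transporters, Slc1a1 encodes the neuronal carrier EAAC1 and Slc1a6 the carrier EAAT4, which is best known from cerebellar Purkinje cells. Slc1a1 differed by 0.01 ± 0.05 (SE; limma, adjusted P-value = 0.959), with a range of 3554 to 3807 in MSN and 3299 to 3925 in ICR mice. Slc1a6 had lowest, median and highest intensities of 195.5, 207.2 and 219.8 in MSN mice and of 195.6, 208.4 and 328.9 in ICR mice. The highest of these was ICR replicate 3, and the other ICR mice did not exceed 222.5. The log2 difference of Slc1a6 was -0.10 ± 0.10 (SE) with all mice and 0.00 ± 0.04 (SE) without that mouse.

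The vesicular transporters did not pass the test either. Slc17a7 (VGLUT1), which fills the vesicles of most cortical and hippocampal excitatory neurons, had lowest, median and highest intensities of 8057, 8435 and 8995 in MSN mice. In ICR mice these were 8335, 8896 and 9002, with ICR replicate 3 the lowest and the other 5 at 8848 or above. The strains overlapped, and the difference was -0.05 ± 0.04 (SE; limma, adjusted P-value = 0.635). Slc17a6 (VGLUT2), the transporter of thalamic and other subcortical neurons, ranged from 619.7 to 661.8 in MSN mice with a median of 646.8. It ranged from 508.0 to 760.9 in ICR mice with a median of 678.8. All 6 MSN values thus lay inside the ICR range, and the difference was -0.01 ± 0.08 (SE). Slc17a8 (VGLUT3), found in some interneurons and other non-classical glutamate cells, read 353.8, 412.7 and 420.5 (lowest, median, highest) in MSN and 357.9, 410.5 and 453.1 in ICR mice. MSN replicate 5 was the lowest MSN mouse and ICR replicate 3 the lowest ICR mouse, and the difference was -0.02 ± 0.05 (SE).

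**Figure D3:**
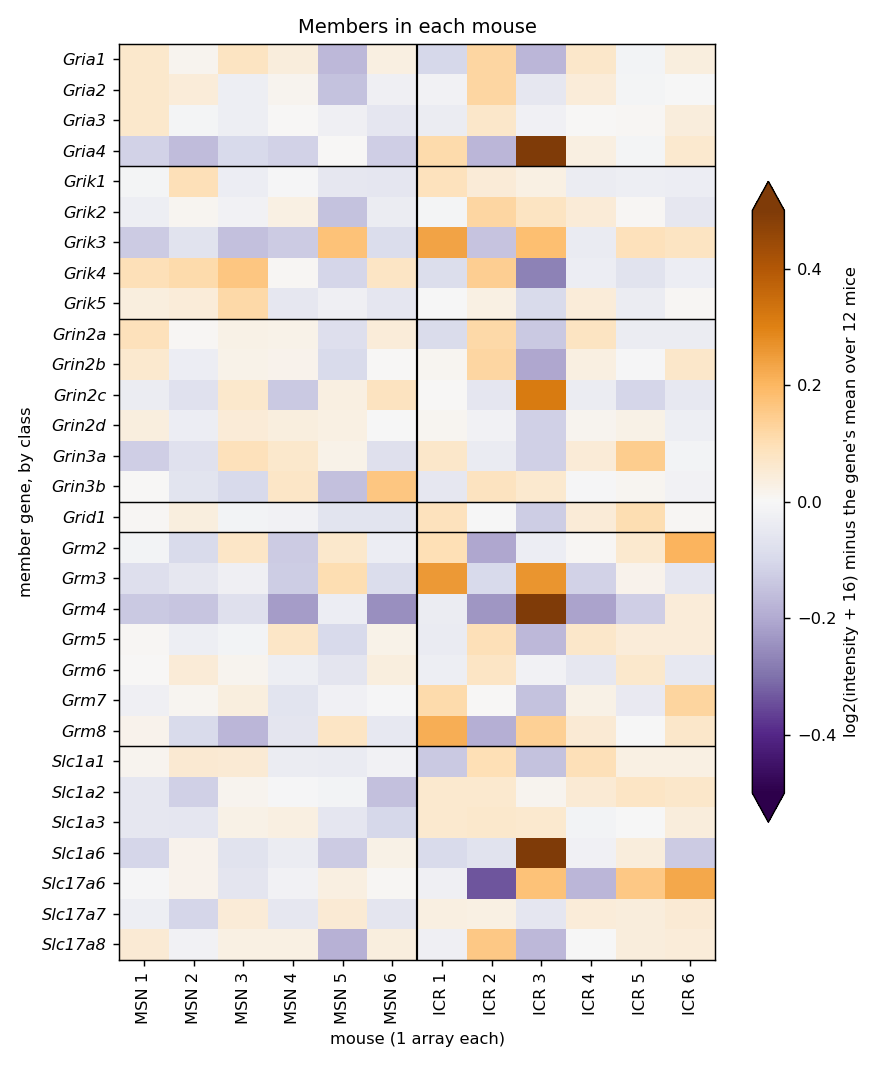
Each of the 30 members (y axis, grouped by class) in each of the 12 mice (x axis, 1 array each) as log2(intensity + 16) minus that gene's mean over the 12 mice; the color scale ends at -0.5 and 0.5. ICR replicate 3 holds the darkest cells (Gria4, Grm4, Slc1a6), and the column of MSN replicate 5 has the lowest value of the 12 in 6 members.

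AMPA receptors carry most fast excitatory transmission. The genes for the subunits that form most hippocampal AMPA receptors, Gria1, Gria2 and Gria3, differed by 0.02 ± 0.06, -0.03 ± 0.04 and -0.02 ± 0.03 (log2, SE). Gria1 had lowest, median and highest intensities of 6561, 7580 and 7799 in MSN mice and of 6539, 7454 and 8033 in ICR mice. Its lowest MSN mouse was replicate 5 and its lowest ICR mouse replicate 3. Gria2, whose edited subunit keeps calcium out of the channel, read 5532, 6124 and 6420 in MSN mice and 5920, 6119 and 6684 in ICR mice. The strains overlapped for Gria1 and for Gria2, as they did for Gria3, which ranged from 5091 to 5532 in MSN and from 5158 to 5551 in ICR mice.

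Gria4, the gene of a subunit known from interneurons and from the cerebellum, had the largest estimate of its class. Its intensities were 1501, 1549 and 1682 (lowest, median, highest) in MSN mice and 1486, 1735 and 2548 in ICR mice. ICR replicate 2 was below all MSN mice, while ICR replicate 3 was far above every other mouse. The difference was -0.20 ± 0.10 (SE; limma, adjusted P-value = 0.397; exact permutation P-value = 0.0433). Without ICR replicate 3 it was -0.11 ± 0.05 (SE, adjusted P-value = 0.378), with an ICR mean of 1688 ± 125 (SD, n = 5) beside 1566 ± 61.2 (SD, n = 6) in MSN mice.

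Kainate receptors act both at synapses and on presynaptic terminals. Grik1, Grik2 and Grik3 encode subunits that form channels on their own, and Grik4 and Grik5 encode high-affinity subunits that join them. Grik3 read 1035, 1070 and 1304 (lowest, median, highest) in MSN mice and 1042, 1226 and 1364 in ICR mice. In MSN mice only replicate 5 was above 1099, so that 5 MSN mice lay below 5 of the 6 ICR mice. The difference was -0.13 ± 0.07 (SE; limma, adjusted P-value = 0.452) and grew to -0.18 without MSN replicate 5.

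Grik4, a gene best known in the hippocampus from CA3 pyramidal neurons, was the member with the largest estimate above 0. It read 1587, 1816 and 1914 (lowest, median, highest) in MSN mice and 1416, 1651 and 1889 in ICR mice. The strains overlapped, with ICR replicate 3 the lowest mouse of all. The difference was 0.12 ± 0.06 (SE; limma, adjusted P-value = 0.472) with all mice and 0.07 ± 0.05 (SE) without ICR replicate 3. Grik1 read 483.6, 496.1 and 539.6 in MSN and 491.6, 504.4 and 536.8 in ICR mice, and Grik2 read 2034, 2227 and 2310 in MSN and 2184, 2305 and 2462 in ICR mice. Their strains overlapped, with differences of -0.02 ± 0.04 and -0.07 ± 0.04 (SE). Grik5 differed by 0.02 ± 0.04 (SE).

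NMDA receptors need glutamate, a co-agonist and depolarization to open. Grin2a and Grin2b encode the glutamate-binding subunits that dominate in the forebrain, and neither passed the test. Grin2a read 3863, 4145 and 4349 (lowest, median, highest) in MSN mice and 3718, 3973 and 4417 in ICR mice, a difference of 0.04 ± 0.05 (SE). The strains overlapped, and the lowest ICR mouse was replicate 3. Grin2b ranged from 4536 to 5053 in MSN and from 4197 to 5275 in ICR mice and differed by -0.01 ± 0.05 (SE).

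Grin2c, known from cerebellar granule cells and astrocytes, read 590.3, 647.8 and 689.6 (lowest, median, highest) in MSN mice and 601.0, 629.4 and 810.1 in ICR mice, the last in replicate 3. The other 5 ICR mice all lay inside the MSN range. The difference of -0.02 ± 0.07 (SE) became 0.04 ± 0.04 (SE) without that mouse. Grin2d, which is known from interneurons, read 316.5, 332.6 and 336.1 in MSN and 297.9, 323.6 and 330.7 in ICR mice. The lowest of these was again ICR replicate 3, and the difference was 0.04 ± 0.03 (SE; limma, adjusted P-value = 0.684). The genes of the modulatory glycine-binding subunits, Grin3a and Grin3b, differed by -0.03 ± 0.05 and -0.03 ± 0.05 (SE). Grid1, whose product belongs to the delta class and links to presynaptic neurexins through cerebellins, differed by -0.04 ± 0.04 (SE).

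Among the metabotropic receptors, Grm5 belongs to group I, which raises intracellular calcium, and the others measured belong to groups II and III, which lower cyclic AMP and mostly restrain release. Grm5 ranged from 4477 to 5047 in MSN and from 4267 to 5131 in ICR mice, with a difference of -0.01 ± 0.05 (SE). Of group II, Grm2, known from dentate granule cells and their mossy fibers, read 1262, 1362 and 1459 (lowest, median, highest) in MSN mice and 1198, 1419 and 1600 in ICR mice. Grm3, which astrocytes also express, read 2358, 2466 and 2777 in MSN mice and 2378, 2547 and 3105 in ICR mice. ICR replicates 1 and 3 were above all other mice in Grm3. The strains overlapped for both genes, with differences of -0.05 ± 0.06 and -0.09 ± 0.07 (SE).

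Of group III, Grm4, best known from cerebellar granule cells, had the largest estimate of all members and the widest spread. It read 425.2, 460.2 and 495.5 (lowest, median, highest) in MSN mice and 428.9, 479.7 and 1392 in ICR mice. The 1392 was ICR replicate 3, and the other 5 ICR mice reached 524.3 at most. The difference was -0.29 ± 0.22 (SE; limma, adjusted P-value = 0.647) with all mice and -0.03 ± 0.06 (SE, adjusted P-value = 0.872) without that mouse. Grm8, a presynaptic receptor, read 331.7, 361.0 and 397.4 in MSN mice and 327.4, 392.3 and 439.8 in ICR mice. Its strains overlapped, with a difference of -0.09 ± 0.06 (SE; limma, adjusted P-value = 0.572). Grm7, a presynaptic receptor of low affinity, differed by -0.02 ± 0.05 (SE), and Grm6, known from bipolar cells of the retina, by 0.00 ± 0.04 (SE).

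Without ICR replicate 3 the picture over the whole set stayed one of small differences. No member was called, against 0.824% of all clusters, and 1 member passed at an unadjusted P-value under 0.05, against 13.8%. Slc1a2 was again that member and again the only one without overlap (-0.12 ± 0.04, SE; limma, adjusted P-value = 0.171; strains without overlap in 2.30% of all clusters). With that mouse left out the median size of the differences was 0.048, the same as the 0.048 over all genes. The widest limit of any 95% interval came down from 0.77 to 0.27 on the log2 scale.

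How much the mice of a strain differed from each other was a readout that the choice of members had not used. The SD of log2(intensity + 16) was larger in the outbred ICR than in the inbred MSN mice for 21 of 30 members (70.0%), and over all genes for 50.5%. The median ratio of ICR to MSN SD was 1.49 for the members and 1.01 for all genes, and 9 of 30 members had a ratio over 2, against 9.67% of all genes. These counts moved with the mice included. Without ICR replicate 3 the SD was larger in ICR mice for 15 of 30 members (all genes 45.6%). The median ratio was then 0.998 (all genes 0.943), and 3 members had a ratio over 2 (10%; all genes 7.97%). Without both ICR replicate 3 and MSN replicate 5 the SD was larger in ICR mice for 20 of 30 (all genes 52.1%). The median ratio was then 1.56 (all genes 1.03), with 11 members over 2 (36.7%; all genes 12.6%).

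Slc17a6 had a high ratio with and without ICR replicate 3. Its SD was 7.01 times as large in ICR as in MSN mice, and 7.29 times as large without ICR replicate 3. Slc1a2 and Slc17a7 went the other way, with ratios of 0.333 and 0.643 that fell to 0.127 and 0.152 without that mouse. The 5 remaining ICR mice had Slc1a2 intensities of 9017 to 9158 and Slc17a7 intensities of 8848 to 9002.

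**Figure D4:**
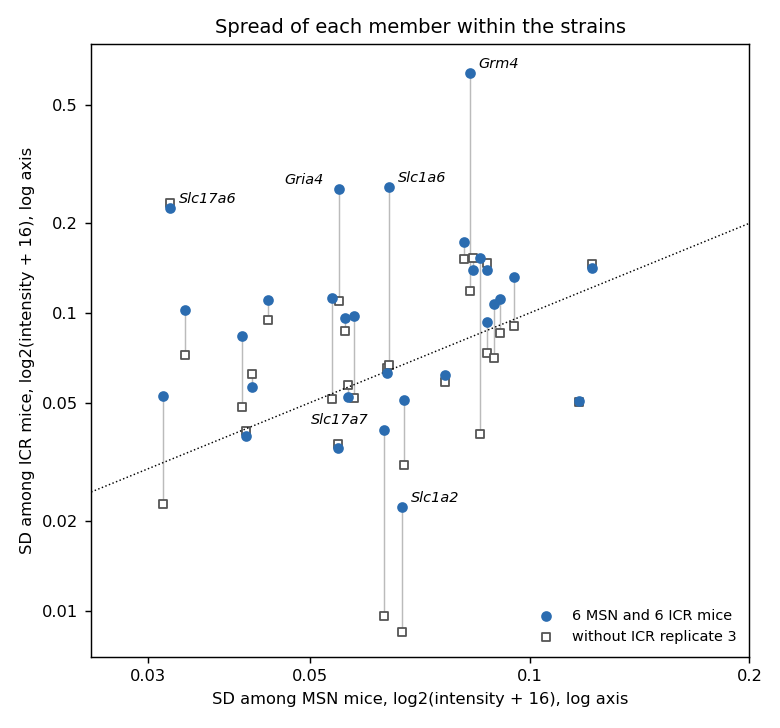
SD of log2(intensity + 16) among ICR mice (y axis) against that among MSN mice (x axis) for each of the 30 members, on log axes; the dotted line marks equal SDs. Filled circles use 6 mice per strain and open squares leave out ICR replicate 3, and the gray line joins both values of a gene. Of the circles 21 lie above the line and of the squares 15, and Grm4, Slc1a6 and Grin2c move down the furthest among those above it.

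The extremes fell on a few mice. ICR replicate 3 had the lowest of the 12 intensities in 10 of 30 members (33.3%) and in 12.1% of all genes. These 10 were Gria1, Grik4, Grik5, Grin2a, Grin2b, Grin2d, Grid1, Grm5, Grm7 and Slc1a1. The same mouse had the highest intensity in 5 members (16.7%; all genes 8.88%), Gria4, Grin2c, Grm3, Grm4 and Slc1a6. ICR replicate 2 was highest in 11 of 30 (36.7%), among them Gria1, Gria2, Gria3, Grin2a, Grin2b and Grm5, and in 12.7% of all genes. MSN replicate 5 was lowest in 6 of 30 members, a share close to the 18.3% of all genes, and MSN replicate 6 in 5 of 30 (16.7%; all genes 8.0%).

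Some members are known from 1 cell type or from a neighboring region, and 6 of them were compared with the markers of that source. A score was made for each mouse as the mean over the listed markers of the log2 value minus its mean over all mice, and the 6 relations form 1 family for the adjustment. The permutations over 12 mice did not keep the strains apart. Their P-values therefore also take in any difference between the strains, and r within each strain is given beside the passing relations. Slc1a2 rose with the score of 10 astrocyte markers over the 12 mice (Pearson's r = 0.829, permutation P-value = 0.00099, adjusted 0.00297; Spearman's rho = 0.685, permutation P-value = 0.0165, adjusted 0.0331). Within the strains r was 0.871 in MSN (exact permutation P-value = 0.0375) and -0.03 in ICR mice (exact permutation P-value = 0.924). Without MSN replicates 2 and 6, the mice with the scores farthest from the median, r was 0.516 (permutation P-value = 0.122, adjusted 0.365). The relation thus kept its sign but did not pass without those mice. Leaving them out also narrows the range of the score and lowers the number of mice.

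Slc1a3 and the astrocyte score gave r = 0.708 (permutation P-value = 0.00719, adjusted 0.0144) and rho = 0.811 (permutation P-value = 0.00191, adjusted 0.0115). Within the strains r was 0.467 in MSN (exact permutation P-value = 0.354) and 0.542 in ICR mice (exact permutation P-value = 0.247). Without MSN replicates 2 and 6 it was 0.440 (permutation P-value = 0.213, adjusted 0.425), and this relation too did not pass without those mice. Of the 10 astrocyte markers 0 were called in limma (all clusters 0.777%) and 4 passed at an unadjusted P-value under 0.05 (all clusters 12.7%). Gfap (-0.30), Aqp4 (-0.23) and Ntsr2 (-0.35) were the 3 with lower and Aldh1l1 (0.19) the 1 with higher estimates in MSN mice. Without ICR replicate 3, Ntsr2 was the 1 astrocyte marker called (adjusted P-value = 0.0102). The summed intensity of the 10 markers was 19108 to 20792 in MSN and 20707 to 22676 in ICR mice. These ranges overlapped, and 4 of the 10 markers had estimates above 0. In whole tissue, a difference in the number of astrocytes and one in the RNA of these genes per astrocyte cannot be told apart.

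Grik4 followed the score of 8 CA3 markers (r = 0.807, permutation P-value = 0.00085, adjusted 0.00297; rho = 0.755, permutation P-value = 0.00659, adjusted 0.0198). The relation was of like size within both strains, with r = 0.779 in MSN (exact permutation P-value = 0.101) and r = 0.799 in ICR mice (exact permutation P-value = 0.025). Without ICR replicates 1 and 3, the farthest from the median score, r was 0.683 (permutation P-value = 0.0247), which did not pass after adjustment (0.148). Bok, a listed CA3 gene, was itself called as higher in MSN mice (0.36, limma adjusted P-value = 0.0305). Without ICR replicate 3 the difference of Bok was 0.33, which missed the threshold (adjusted P-value = 0.0546). Of the 8 CA3 markers 2 passed at an unadjusted P-value under 0.05 (all clusters 12.7%). These were Bok and Prss35, and Prss35 had a lower estimate in MSN mice (-0.22, limma adjusted P-value = 0.309). The summed intensity of the CA3 markers was 14301 to 15280 in MSN and 12554 to 15004 in ICR mice, and its lowest value was ICR replicate 3.

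The 3 remaining relations did not pass the test. Slc17a6 against 12 markers of thalamus and habenula gave r = 0.148 (rho = 0.301, adjusted permutation P-values = 0.777 and 0.422). Grm3 against the astrocyte score gave r = 0.237 (rho = 0.294, adjusted permutation P-values = 0.681 and 0.422). Grm2 against 8 dentate granule markers gave r = -0.09 (rho = -0.13, adjusted permutation P-values = 0.777 and 0.685). Leaving out the 2 mice with the farthest scores gave r of 0.07, 0.09 and -0.31 for these 3. With only ICR replicate 3 left out, r was 0.834 for Slc1a2 (permutation test, adjusted P-value = 0.00522), 0.701 for Slc1a3 (adjusted P-value = 0.0285) and 0.683 for Grik4 (adjusted P-value = 0.0285).

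**Figure D5:**
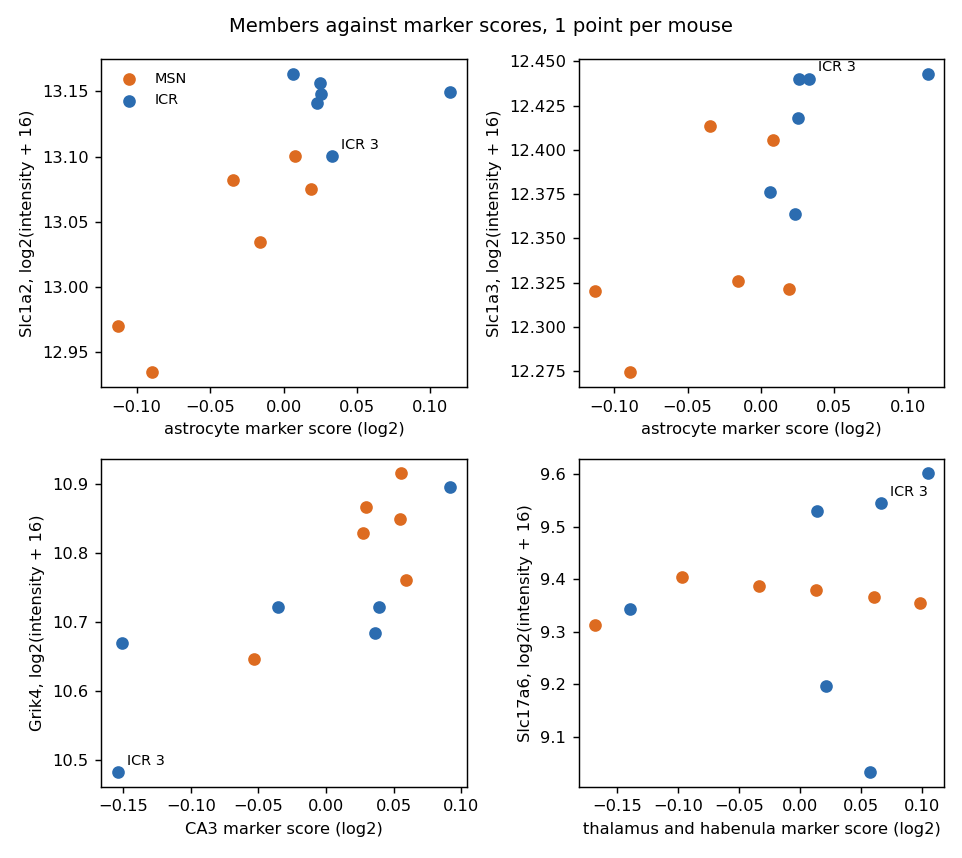
log2(intensity + 16) of Slc1a2, Slc1a3, Grik4 and Slc17a6 (y axes) against the marker score of the cell type or region named on each x axis (log2 units around the mean of all mice), 1 point per mouse (MSN orange, ICR blue). Slc1a2 and Slc1a3 are lowest in the MSN mice with the lowest astrocyte scores, Grik4 is lowest in ICR replicate 3, which has the lowest CA3 score, and Slc17a6 shows no trend (r = 0.148).

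The proteins that work with these receptors were taken as 3 further lists. Receptor auxiliary subunits steer the trafficking and gating of the channels, and 20 of 21 listed genes were measured. The list also holds genes of secreted proteins (pentraxins and cerebellins), so its counts are not of auxiliary subunits alone. None of the 20 was called (all clusters 0.777%), and 8 passed at an unadjusted P-value under 0.05 (all clusters 12.7%), 5 with higher and 3 with lower estimates in MSN mice. Of the 5, the pentraxin gene Nptx2 read 953.0 in MSN replicate 5 and 467.3 to 639.1 in the other mice. Nrn1, the gene of the neuritin found in native AMPA receptor complexes, had the smallest P-value. MSN mice averaged 6009 ± 355 (SD, n = 6) and ICR mice 5051 ± 428 (SD, n = 6). Its strains did not overlap, and the difference of 0.25 missed the adjusted threshold (limma, adjusted P-value = 0.0603) but passed it without ICR replicate 3 (adjusted P-value = 0.0434). Cacng7, which encodes a transmembrane AMPA receptor regulatory protein, averaged 3152 ± 52.8 (SD, n = 6) in the MSN group and 3906 ± 516 (SD, n = 6) in the ICR group, without overlap. Its difference was -0.30 (limma, adjusted P-value = 0.0671) with all mice and -0.26 (adjusted P-value = 0.0988) without ICR replicate 3.

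Among postsynaptic scaffolds and kinases, 22 of 23 listed genes were measured, 0 were called and 2 passed at an unadjusted P-value under 0.05, a share below the 12.7% of all clusters. These were Shank3, a scaffold of the postsynaptic density (0.10; limma, adjusted P-value = 0.295), and Akap5, which anchors kinases near AMPA receptors (-0.11; adjusted P-value = 0.334). Of the genes of glutamate metabolism and amino acid carriers, 12 of 14 were measured, 0 were called and 3 passed at an unadjusted P-value under 0.05, against 12.7% of all clusters. Slc7a11 and Slc3a2 encode the light and the heavy chain of the cystine-glutamate exchanger, and both had lower estimates in MSN mice. Slc7a11 averaged 1405 ± 139 (SD, n = 6) in the MSN group and 1737 ± 222 (SD, n = 6) in the ICR group, a difference of -0.30 (limma, adjusted P-value = 0.142). Slc3a2 had means of 4084 ± 72.6 (SD, n = 6) and 4349 ± 142 (SD, n = 6), which did not overlap, with a difference of -0.09 (adjusted P-value = 0.245). The third was Glud1, glutamate dehydrogenase, at 0.10 (adjusted P-value = 0.333).

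The markers of other tissue that the dissection could hold were read in the same fit. The choroid plexus list, 12 genes, had 0 called and estimates above 0 in 12 of 12 (all genes 45.3%), with summed intensities of 10562 to 26048 in MSN and 8763 to 26276 in ICR mice. Estimates were above 0 in 8 of 8 oligodendrocyte, 7 of 9 microglial, 6 of 8 endothelial, 4 of 5 striatal and 5 of 12 thalamic and habenular markers. The immediate early and cerebellar lists were put together after the values were seen, so their counts are no separate evidence on the strains. All 8 immediate early genes, each highest in MSN replicate 5, were above 0. Of the 14 cerebellar markers, each highest in ICR replicate 3, 0 were above 0. Without ICR replicate 3, Ppp1r17 (0.05), Pvalb (0.02) and Gdf10 (0.01) lay above 0 and the other cerebellar markers below it. In the hippocampal neuron list 12 of 14 were above 0 (all genes 45.3%). Of the 14, 4 passed at an unadjusted P-value under 0.05 (all clusters 12.7%), all with higher estimates in MSN mice. The 1 called gene (all clusters 0.777%) was Bok, which is also in the CA3 list. Without ICR replicate 3, the mouse with the lowest sum of these markers, 3 passed at an unadjusted P-value under 0.05 and 0 were called. The estimates were above 0 in 6 of 8 CA3, 4 of 8 dentate granule and 4 of 10 astrocyte markers. No gene was called among the markers of dentate granule cells, cerebellum, thalamus and habenula, striatum, oligodendrocytes, microglia or endothelium, nor among the immediate early genes. Their part in the members' differences was not tested.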

How the data were processed

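Hippocampal total RNA of 6 MSN and 6 ICR mice was hybridized to 1 Affymetrix array each. Per the labels and the study's methods, the authors summarized probes to intensity values with PLIER, run in Affymetrix Power Tools 1.12.0, after subtracting background estimated from control probes of like GC content. They are linear, already normalized, and come without detection calls, so a low value is no proof of expression; the genome build is not given in the sources used here. The number of arrays limits the precision.

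Groups came from the labels. Log2(intensity + 16) was fitted with strain as the only term in limma 3.58.1 (R 4.3.3, lmFit and eBayes), with P-values adjusted by Benjamini-Hochberg over the 23410 clusters that carry a gene. 12146 clusters without a gene were left out. Permutation tests were two-sided, exact over 6 mice or with 100000 resamples over 12. The fit was tested on simulated data. Pseudocounts, scaling, filters, a replicate block and each mouse left out were tried as alternatives, 23 in all. All 30 members were named, with values per mouse for those that did not overlap, had an outlying mouse, had the 2 lowest P-values of their class or entered the marker comparison, and from each further list the called genes or else the 2 with the lowest P-values. Slc3a2, Glud1, Prss35, Nptx2 and the astrocyte and cerebellar markers were named after their values were seen. The members and lists were chosen with earlier results of these data known.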

Additional observations from a re-analysis of the deposited data

Results flagged for a closer look

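In each strain of 6 mice, the gap between the most extreme mouse and its nearest neighbor was divided by the whole range, and a share above the 95% critical value of Dixon's test for 6 samples was taken as an outlying mouse. Chance gives this in about 1 of 20 independent groups, and it was met in 12 of 60 here. The 60 groups share the same 12 mice, so they are not independent. The share over all genes was not computed, so the count cannot be read as particular to the members. In ICR mice all 7 fell on replicate 3. It was outlying as the highest mouse in Grm4 (0.831), Slc1a6 (0.755), Grin2c (0.742) and Gria4 (0.628), and as the lowest in Slc17a7 (0.776), Slc1a2 (0.647) and Grin2d (0.633). In MSN mice 4 of 5 fell on replicate 5, as the lowest mouse in Gria1 (0.743), Slc17a8 (0.702) and Grik2 (0.630) and as the highest in Grik3 (0.739). The other was Grik1, highest in MSN replicate 2 (0.646). ICR replicate 3 was also the mouse with the highest cerebellar markers and MSN replicate 5 the one with the highest immediate early genes.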

How the results depend on the processing

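The count of called members was 0 under all 23 alternatives, with the lowest adjusted P-value of any member between 0.0732 (Slc1a2, trend and robust options) and 0.318. At an unadjusted P-value under 0.05 between 1 and 5 members passed, and the 5 were without ICR replicate 2. After quantile normalization and after scaling to the same median, 0 members had strains that did not overlap. The auxiliary subunit list had 2 called genes with a pseudocount of 64, 1 with trend and robust options and 2 among clusters above the median intensity, and 0 to 2 when 1 mouse was left out (1 without ICR replicate 2, 1 without ICR replicate 3 and 2 without ICR replicate 4).

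The sign turned for some members, most of them with estimates near 0; Slc1a6 (-0.10 with all mice) was the exception. After quantile normalization Slc17a6 was 0.0083 and Slc17a8 0.0110. After scaling to the same median Gria3 was 0.0074, Grik1 0.0033, Grin2b 0.0182, Grin2c 0.0050, Grm5 0.0115, Grm7 0.0029, Slc17a6 0.0177 and Slc17a8 0.0077. With 1 mouse left out the estimates ran from -0.012 to 0.057 for Gria1, -0.0015 to 0.033 for Grik5, -0.0501 to 0.016 for Grin2b, -0.045 to 0.0397 for Grin2c, -0.061 to 0.0018 for Grin3b, -0.0502 to 0.0036 for Grm5, -0.0064 to 0.019 for Grm6, -0.076 to 0.037 for Slc17a6, -0.053 to 0.017 for Slc17a8, -0.0203 to 0.0296 for Slc1a1 and -0.137 to 0.0041 for Slc1a6. Without both ICR replicate 3 and MSN replicate 5, an alternative chosen after seeing the data, Grin2c was 0.031, Grin3b 0.011, Slc1a1 -0.011, Slc1a6 0.0202 and Slc17a6 0.018, and the transporter median moved from -0.048 to -0.018. The cause was not tested.

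The relation of Grm2 to the dentate score turned to 0.154 after scaling to the same median. Without the 2 farthest mice r fell to 0.516 for Slc1a2, 0.440 for Slc1a3 and 0.683 for Grik4, none of which passed.

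The labels do not state that the replicate numbers pair the mice, and low correlations cannot exclude it. For this check the strain's own mean was subtracted from each log2 value, so only deviations within the strains were correlated. In these deviations same-numbered mice correlated at -0.13 to 0.13, above 0.1 in 1 of 6 pairs. In the other strain, 3 of 12 mice correlated best with their own number. With the replicate block 42 clusters were called instead of 182, and 0 members. Averaging all clusters of a gene could not differ, as each member has 1. In all, 41 of 685 estimates of single members over the alternatives turned their sign and none crossed the threshold.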
